A study of Homo sapiens with 9 samples.

Results

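FAS, CFLAR and the caspase machinery were measured as 7 genes, FAS, CFLAR, FADD, CASP8, CASP10, APAF1 and XIAP, out of 19775 genes named on the arrays. The members are all probe sets that the array annotation assigns to exactly 1 gene, that gene being 1 of the 7, which gave 37 of 54613 probe sets. FAS has 5 of them, CFLAR 14, FADD 1, CASP8 3, CASP10 4, APAF1 3 and XIAP 7. The cells were BL2, an established human Burkitt lymphoma line that stands in for germinal centre B cells after transformation, and the question was what paracrine B cell stimuli change in such cells. Cells were stimulated for 6 hrs with recombinant human CD40L at 200 ng/ml or for 6 hrs with LPS at 1 µM, or were left as untreated control cells, and each of the 3 experimental batches contributed 1 array per condition (n = 3 arrays per condition, 9 in all). The labels give no culture time for the control cells. BL2 is a single line, so the spread between arrays is that between experiments and not between donors.

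FAS is the death receptor CD95, which gathers the adaptor FADD at its intracellular death domain when its ligand binds. FADD recruits procaspase-8 and procaspase-10, which activate each other in this complex, and CFLAR, known as c-FLIP, is a relative of both that enters the same complex and, mostly, holds their activation back. APAF1 is the scaffold of the apoptosome, on which caspase-9 is activated once cytochrome c leaves the mitochondria, and XIAP binds and inhibits caspases of both routes. Germinal centre B cells carry FAS on their surface, and CD40, the receptor for CD40L of helper T cells, is known to raise it. LPS is a glycolipid of bacteria that is sensed by a Toll-like receptor.

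Levels are generalised log2 values, a scale that follows log2 where a probe set is bright and flattens where it is dim, so that fold changes of dim probe sets come out too small. The median of all probe set means was 6.45, and 30 of the 37 member probe sets lay above it. Arrays of 1 condition correlated at 0.994 to 0.997 over all probe sets. Of B cell and germinal centre markers all 7 measured were above the median. Their mean level was 10.43 to 10.47 on CD40L arrays, 10.52 to 10.60 on LPS arrays and 10.67 to 10.78 on control arrays. By limma 5 of 7 were lower after CD40L and 3 of 7 after LPS, beside 2.92% and 1.48% of all genes. Log2 differences ran from −0.53 to 0.39 after CD40L and from −0.38 to 0.31 after LPS. PAX5 was the highest in both and did not pass. The part of these markers in the results below was not tested. Of 20 markers of T and NK cells, monocytes and fibroblasts none passed the limma test after either stimulus (at an unadjusted p under 0.05 the count was 3 with CD40L and 0 with LPS, beside 19.9% and 15.0% of all genes), and 13 had means at or below the median. CD40 had a mean level of 8.94. The 3 receptor genes for LPS were dimmer, with 7.23 for TLR4, 6.51 for LY96 and 6.20 for CD14, which lay below the median. TLR4 was lower after CD40L, with a log2 difference of −0.26 (adjusted p = 0.0423 from limma). It was −0.33, −0.04 and −0.39 within the 3 batches. A change in every cell and a change in the share of cells that responded cannot be told apart in RNA from whole cultures.

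After CD40L, the receptor FAS and the inhibitor CFLAR rose. The log2 difference was 0.58 to 0.79 on the 4 probe sets of FAS that passed, of 5, and 0.23 to 0.74 on the 7 probe sets of CFLAR that passed, of 14, while FADD, CASP8, CASP10 and XIAP had no probe set past the test and 1 of 3 probe sets of APAF1 fell. In all, 11 of 37 member probe sets were higher and 1 was lower (limma, adjusted p up to 0.05), beside 3.71% higher and 1.87% lower of all 54613 probe sets. These are 2027 higher and 1022 lower probe sets, and quantile normalization gave 1708 and 1695, with 13 higher and 1 lower among the members. After LPS 1 member probe set, of FAS, was higher and 1, of APAF1, was lower, beside 1.17% higher and 0.892% lower of all probe sets. The median log2 difference over the 37 was 0.090 after CD40L and 0.017 after LPS, against 0.0050 and 0.0029 over all probe sets. Probe sets of 1 gene share their transcripts and are not independent of each other. The genes were chosen with these results known, and the study itself had named FAS and CFLAR among genes changed on these arrays, so their counts are not independent evidence of the direction.

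**Figure D1:**
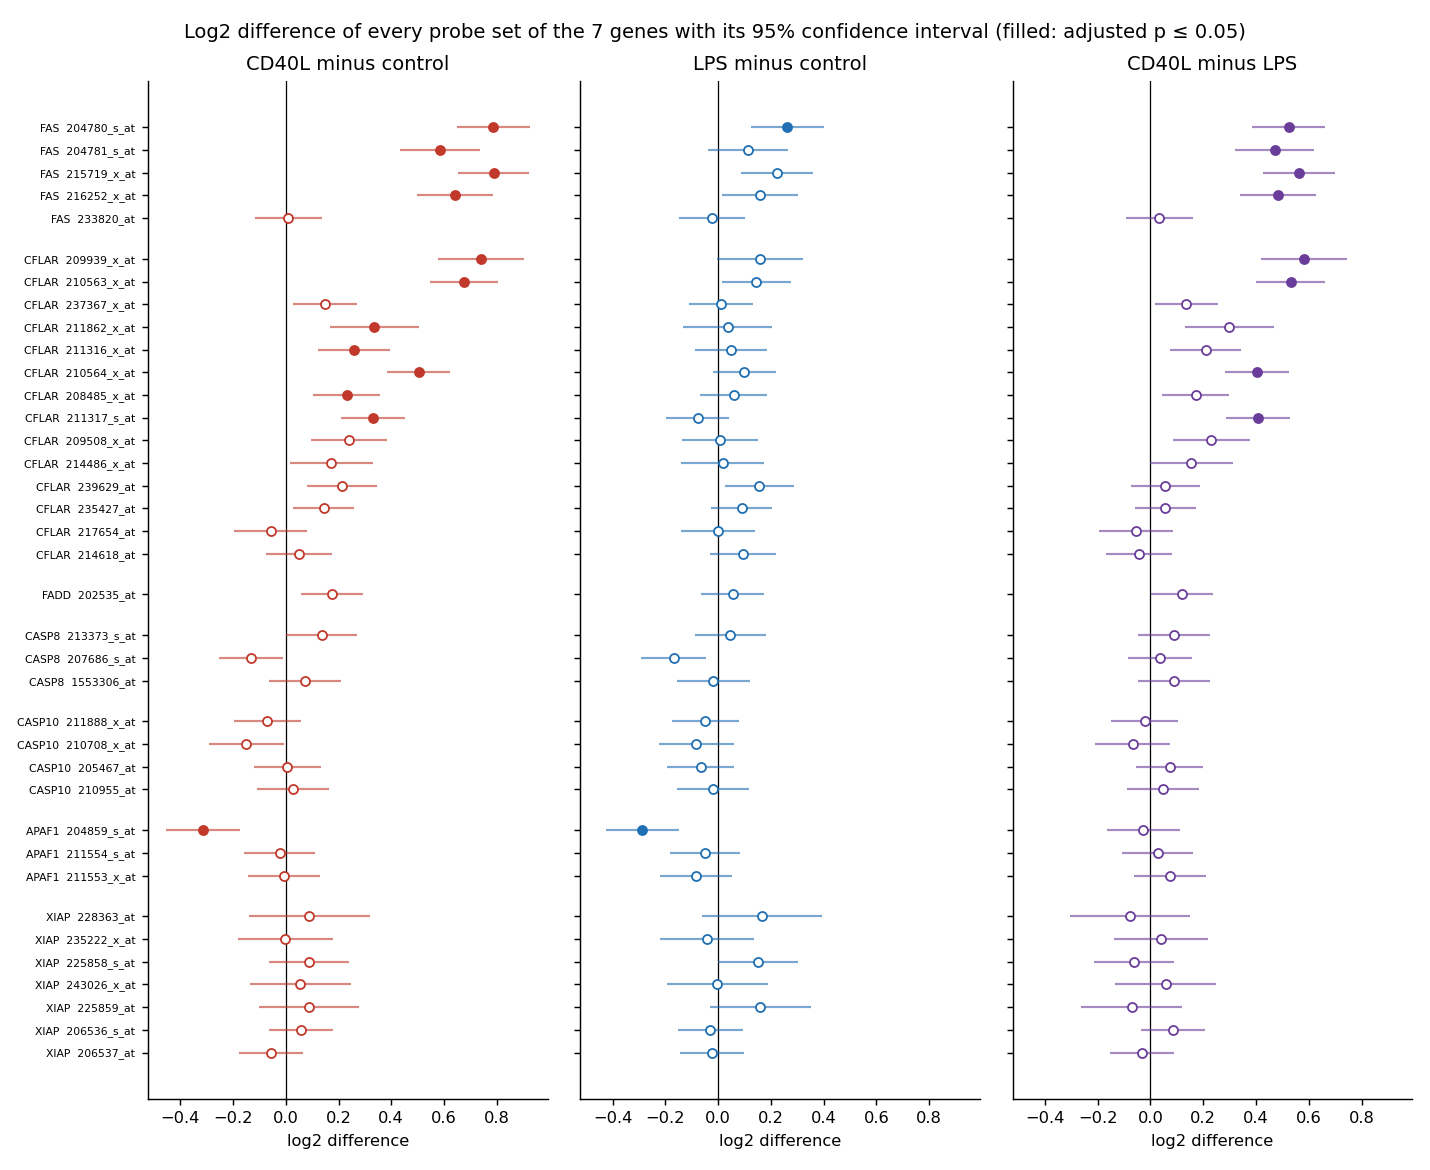
Log2 differences (x axis) of all 37 probe sets (rows, grouped by gene and ordered by mean level) for the 2 stimuli against control and for CD40L minus LPS, with points for the limma estimate, lines for its 95% confidence interval and filled points for an adjusted p of at most 0.05. Filled points after CD40L lie to the right for 4 probe sets of FAS and 7 of CFLAR and to the left for 1 of APAF1.

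Windows of RefSeq sequence before the start sites of FAS and CFLAR are shown because these 2 members rose after CD40L, and each gene has 1 window with a match to the NF-κB consensus, the class of sites that transcription factors downstream of both CD40 and Toll-like receptors bind. For each matching window, the 250 bases before its own start site are printed 5′ to 3′ on the plus strand of GRCh38.p14, with the match in capitals. The windows of the other annotated start sites are not printed. Those of FAS begin at 88990548 and 88990664, upstream of the printed one. Both printed stretches lie inside the annotated genes, which begin at 88964050 for FAS and 201116164 for CFLAR.
FAS, chr10:88991181-88991430: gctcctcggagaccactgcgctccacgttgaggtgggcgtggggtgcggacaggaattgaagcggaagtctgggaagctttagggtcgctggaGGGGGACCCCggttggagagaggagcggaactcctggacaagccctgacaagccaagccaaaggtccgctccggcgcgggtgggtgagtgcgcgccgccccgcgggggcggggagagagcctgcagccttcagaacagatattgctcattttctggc
CFLAR, chr2:201118466-201118715: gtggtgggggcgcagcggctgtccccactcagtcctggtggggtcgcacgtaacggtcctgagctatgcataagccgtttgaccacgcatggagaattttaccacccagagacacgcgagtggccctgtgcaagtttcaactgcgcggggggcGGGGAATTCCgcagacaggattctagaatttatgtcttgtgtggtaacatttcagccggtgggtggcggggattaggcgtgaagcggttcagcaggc
The match begins 157 bases before the start site of this window in FAS and 97 bases before that of this window in CFLAR. Searched on both strands of 300-base windows (250 before to 50 after a start), the consensus was found in 5.91% of all 35116 windows and in 2 of the 15 windows of the members, 1 of 3 for FAS and 1 of 4 for CFLAR. The 7-letter AP-1 site TGANTCA was found in 7.71% of all windows and in 5 of the 15, which belong to FAS, CFLAR, FADD and CASP8, and the STAT site TTCNNNGAA in 7.66% and in 1, of CASP8. The windows of APAF1 and XIAP held no match to these letters. Windows were at hand for 6 of the 7 genes. Start site use and factor binding were not measured, and these are matches of letters only.

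The level of FAS by its brightest probe set, 204780_s_at, was 7.50, 7.46 and 7.58 on the CD40L arrays of batches 1 to 3, 6.95, 7.06 and 6.96 on the LPS arrays and 6.82, 6.61 and 6.75 on the control arrays. The 3 conditions did not overlap, with every CD40L array above every LPS array and every LPS array above every control array. The log2 difference was 0.79 after CD40L (1.72-fold, standard error 0.0648, adjusted p = 1.47e-06 from limma), and it was 0.68, 0.85 and 0.83 within the 3 batches. Among 19775 genes, each by its brightest probe set, this was the rise of rank 42.

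Probe set 215719_x_at of FAS read 7.11, 6.95 and 7.01 on CD40L arrays, 6.50, 6.45 and 6.43 on LPS arrays and 6.44, 6.19 and 6.08 on control arrays. CD40L arrays again stood clear of both other conditions, and here the LPS and control arrays overlapped. Its log2 difference after CD40L was 0.79 (standard error 0.0638, adjusted p = 1.25e-06 from limma). The other probe sets of FAS that passed, 204781_s_at and 216252_x_at, had log2 differences of 0.58 (adjusted p = 8.6e-05) and 0.64 (adjusted p = 2.14e-05), and their CD40L arrays did not overlap the control arrays either. All 4 calls held in each of 9 fits that left out 1 of the 3 batches, of the 3 CD40L arrays or of the 3 control arrays, with an adjusted p of at most 0.0137 there.

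The fifth probe set, 233820_at, was dim and flat, at 6.23, 6.22 and 6.18 on CD40L arrays, 6.08, 6.19 and 6.26 on LPS arrays and 6.20, 6.22 and 6.18 on control arrays. Its mean ranked at 33.5% of all probe set means, and its log2 difference after CD40L was 0.01, with a 95% confidence interval of −0.12 to 0.14. The 4 others ranked at 51.7% to 70.2%.

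CFLAR was the other gene that rose after CD40L. By its brightest probe set, 209939_x_at, the level was 9.06, 9.48 and 9.25 on CD40L arrays, 8.67, 8.75 and 8.63 on LPS arrays and 8.60, 8.50 and 8.48 on control arrays. The CD40L arrays were all above the others, batch 2 the highest of them, and the LPS arrays lay just above the control arrays. The log2 difference after CD40L was 0.74 (1.67-fold, standard error 0.0765, adjusted p = 1.62e-05 from limma) and the rise had rank 53 among all genes. Within the batches it was 0.47, 0.98 and 0.77.

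A probe set of nearly the same brightness, 210563_x_at, gave 9.16, 9.34 and 9.14 on CD40L arrays, 8.70, 8.76 and 8.58 on LPS arrays and 8.63, 8.52 and 8.46 on control arrays. The CD40L arrays again lay above all others, while LPS and control arrays overlapped. Its log2 difference after CD40L was 0.68 (standard error 0.0614, adjusted p = 4.27e-06 from limma). With 210564_x_at, at a log2 difference of 0.50 (adjusted p = 3.76e-05), these 3 calls held in the same 9 fits.

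The rest of CFLAR was more graded. Probe sets 211862_x_at, 211317_s_at, 211316_x_at and 208485_x_at passed with log2 differences of 0.34, 0.33, 0.26 and 0.23 (adjusted p = 0.0195, 0.00193, 0.0231 and 0.0313 from limma). These depended on the arrays in the fit. The call of 211317_s_at was lost without batch 3 (0.28, adjusted p = 0.0514). That of 211862_x_at was lost without batch 1 or 3, CD40L replicate 1 or 3, or control replicate 3 (0.18 to 0.38, adjusted p up to 0.254), that of 208485_x_at without any 1 CD40L array, control array or batch (0.19 to 0.26, adjusted p up to 0.17), and that of 211316_x_at in 8 of 9 such fits (0.20 to 0.29, adjusted p up to 0.132), all but that without control replicate 3.

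Of the 7 CFLAR probe sets that missed the threshold, 209508_x_at and 239629_at came nearest, with log2 differences of 0.24 (adjusted p = 0.0531) and 0.21 (adjusted p = 0.0578). 3 probe sets, 235427_at, 217654_at and 214618_at, lay below the median of all probe set means, at ranks of 20.8%, 12.1% and 1.3%, with log2 differences of 0.14, −0.06 and 0.05. In total 13 of the 14 were on the higher side after CD40L, and on 11 of them the CD40L arrays lay wholly above the control arrays. Over all members this held for 17 of 37 probe sets, and the CD40L arrays lay wholly below for 3, beside 9.09% and 7.27% of all probe sets.

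The suffixes of the probe sets say how specific their probes are. Of the 12 member probe sets called after CD40L, 8 end in x_at, which marks probes that can also match other transcripts, and 4 end in s_at, which marks probes shared by several transcripts. None of the 12 member probe sets with the plain ending passed. Of these, 1 is of FAS and 4 are of CFLAR. The rest are of FADD, CASP8, CASP10 and XIAP, which had no call on any kind of probe set. Those of FAS and CFLAR lay below the median of all probe set means, all but 239629_at (rank 50.4%, log2 difference 0.21, adjusted p = 0.0578 from limma). The part of the ending apart from gene and level was not tested. For FAS the calls were split between x_at and s_at, 2 and 2, while for CFLAR 6 were of the x_at kind and 1 of the s_at kind. The mean of all probe sets of a gene, fitted over all genes, gave log2 differences after CD40L of 0.56 for FAS (adjusted p = 7.01e-05 from limma) and 0.28 for CFLAR (adjusted p = 0.00243).

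**Figure D2:**
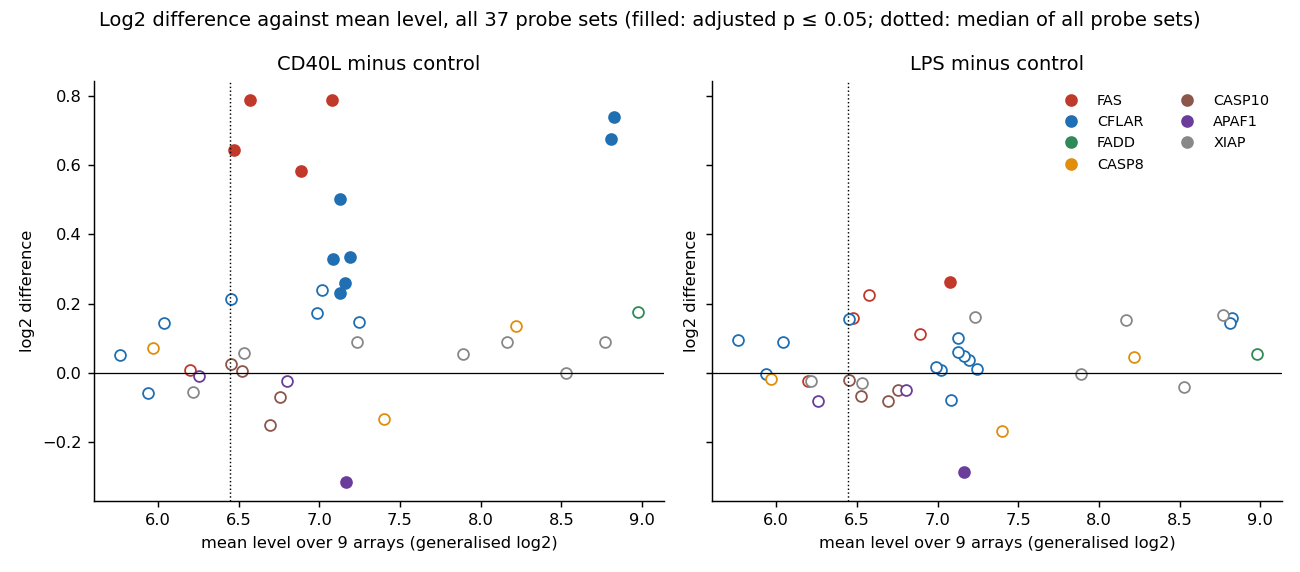
Log2 difference (y axis) against the mean level over all 9 arrays (x axis, generalised log2) for each of the 37 probe sets, coloured by gene, for CD40L minus control (left) and LPS minus control (right). Filled points passed the adjusted p of at most 0.05 and the dotted line is the median of all probe set means, 6.45. All filled points lie above that median, and the dim probe sets of FAS and CFLAR lie between −0.06 and 0.14 after CD40L.

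FADD, the adaptor between FAS and the initiator caspases, is read by a single, bright probe set. Its level was 9.11, 9.05 and 9.06 on CD40L arrays, 8.96, 8.92 and 8.99 on LPS arrays and 8.87, 8.92 and 8.91 on control arrays. CD40L arrays lay above all others by a small margin, and the log2 difference of 0.17 (standard error 0.0557) missed the threshold with an adjusted p of 0.0895 from limma. The 95% confidence interval was 0.06 to 0.29. When genes were tested by the mean of their probe sets, so over 19775 genes, the same 0.17 had an adjusted p of 0.0353. After LPS the difference was 0.05 (adjusted p = 0.831).

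The initiator caspases CASP8 and CASP10 lie next to CFLAR on chromosome 2, in the order CFLAR, CASP10, CASP8, and neither passed the test on any probe set after either stimulus. At an unadjusted p under 0.05, 2 of 3 probe sets of CASP8 and 1 of 4 of CASP10 differed after CD40L, and 1 of CASP8 and 0 of CASP10 after LPS, beside 15.7% and 11.6% of all probe sets at that threshold. The 2 of CASP8 after CD40L had opposite signs. CASP8 by its brightest probe set was at 8.18, 8.49 and 8.21 on CD40L arrays, 8.15, 8.32 and 8.14 on LPS arrays and 8.17, 8.17 and 8.13 on control arrays. The CD40L and LPS arrays of batch 2 were higher than the rest, which lay close together. The difference was 0.14 after CD40L (adjusted p = 0.317, 95% confidence interval 0.00 to 0.27) and 0.05 after LPS (adjusted p = 0.892).

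Another CASP8 probe set, 207686_s_at, was on the lower side, at 7.42, 7.30 and 7.39 on CD40L arrays, 7.36, 7.33 and 7.30 on LPS arrays and 7.46, 7.51 and 7.53 on control arrays. Neither stimulated condition overlapped the control arrays, yet the log2 differences of −0.13 after CD40L (adjusted p = 0.265) and −0.17 after LPS (adjusted p = 0.192) did not pass.

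CASP10, the relative of CASP8 that FADD also recruits, was dimmer. Its brightest probe set had 6.83, 6.65 and 6.71 on CD40L arrays, 6.79, 6.72 and 6.74 on LPS arrays and 6.80, 6.86 and 6.73 on control arrays, and the 3 conditions overlapped. Over its 4 probe sets the log2 difference ran between −0.15 and 0.03 after CD40L and between −0.08 and −0.02 after LPS. The confidence intervals reached −0.29 and 0.16 after CD40L.

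**Figure D3:**
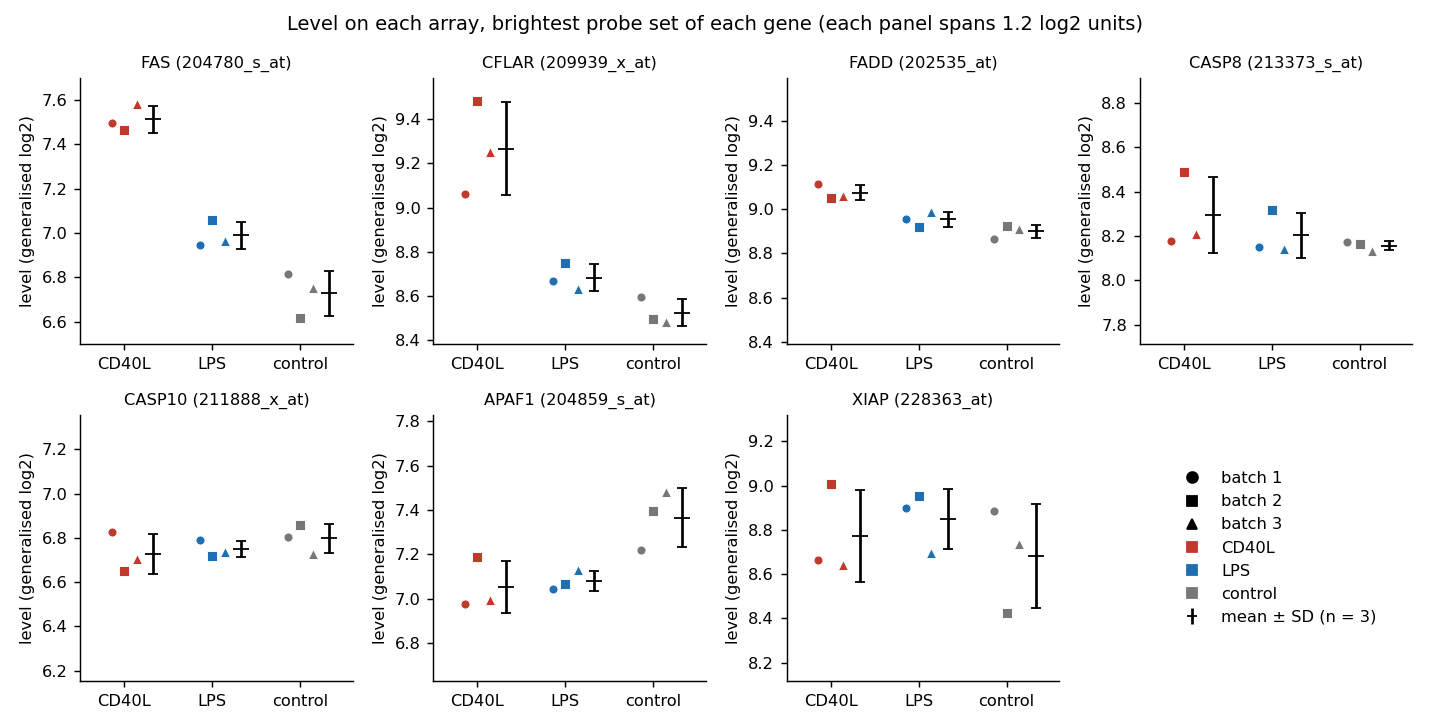
Level (y axis, generalised log2, each panel spanning the same range) of the brightest probe set of each gene on the CD40L, LPS and control arrays, with 1 symbol per batch and the mean ± SD in black (n = 3). FAS, CFLAR and, by a small margin, FADD have their CD40L arrays above all others. APAF1 has its control arrays above all others, and the conditions overlap for CASP10 and XIAP.

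APAF1 was the 1 member that was lower after both stimuli, on 1 probe set of 3. For 204859_s_at the levels were 6.98, 7.19 and 6.99 on CD40L arrays, 7.04, 7.06 and 7.13 on LPS arrays and 7.22, 7.40 and 7.48 on control arrays. Control arrays lay above all stimulated ones, and the CD40L and LPS arrays overlapped. The log2 difference was −0.31 after CD40L (standard error 0.0656, adjusted p = 0.00813 from limma) and −0.29 after LPS (standard error 0.0656, adjusted p = 0.0311), and both comparisons use the same control arrays. CD40L minus LPS gave −0.03, with a 95% confidence interval of −0.17 to 0.11.

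The APAF1 calls were not firm. The CD40L call was lost without batch 1 or 3, CD40L replicate 3 or control replicate 3 (−0.35 to −0.23, adjusted p up to 0.149). The LPS call was lost without any LPS array or any batch, and without control replicate 3 (−0.34 to −0.23, adjusted p up to 0.236), and also in the fit with no batch term (adjusted p = 0.149). The other probe sets had −0.02 (211554_s_at, 95% confidence interval −0.16 to 0.11) and −0.01 (211553_x_at, −0.14 to 0.13) after CD40L, and the mean of all 3 gave −0.12 after CD40L (adjusted p = 0.248) and −0.14 after LPS (adjusted p = 0.225).

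XIAP, the caspase inhibitor, passed on none of its 7 probe sets in limma. At an unadjusted p under 0.05 the count was 0 with CD40L and 1 with LPS, beside 15.7% and 11.6% of all probe sets. By the brightest, 228363_at, levels were 8.67, 9.01 and 8.64 on CD40L arrays, 8.90, 8.95 and 8.70 on LPS arrays and 8.88, 8.43 and 8.73 on control arrays. The conditions overlapped, with an SD of 0.21 on CD40L arrays, 0.14 on LPS arrays and 0.23 on control arrays. The log2 differences of the 7 ran between −0.06 and 0.09 after CD40L and between −0.04 and 0.17 after LPS. For 228363_at the 95% confidence interval was −0.14 to 0.32 after CD40L and −0.06 to 0.40 after LPS. Within batches its difference after CD40L was −0.22, 0.58 and −0.09.
In a single setting a XIAP probe set passed, 225859_at without control replicate 3 (0.25 after CD40L, adjusted p = 0.0471, and 0.32 after LPS, adjusted p = 0.0262).

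After LPS, FAS passed on 1 probe set and CFLAR on 0. FAS on 204780_s_at was higher with a log2 difference of 0.26 (standard error 0.0648, adjusted p = 0.0474 from limma), and 0.13, 0.45 and 0.21 within the batches. This call was lost without any LPS array, any batch, or control replicate 2 or 3 (0.17 to 0.33, adjusted p up to 0.361), without the batch term (adjusted p = 0.106), in the fit on LPS and control arrays alone (adjusted p = 0.108) and with dim probe sets left out (adjusted p = 0.0537). The other probe sets of FAS had −0.02 to 0.22. None of the 14 CFLAR probe sets passed in limma (2 at an unadjusted p under 0.05, beside 11.6% of all probe sets). Their log2 differences were −0.08 to 0.16, with 0.16 for 209939_x_at (adjusted p = 0.451, 95% confidence interval 0.00 to 0.32). LPS arrays lay wholly above the control arrays for 5 of the 37 member probe sets and wholly below for 3, beside 7.00% and 6.38% of all probe sets.

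Set directly against LPS, CD40L gave higher levels on 8 of the 37 probe sets, 4 of FAS and 4 of CFLAR, and lower levels on 0, beside 0.300% higher and 0.0952% lower of all probe sets in limma. By an unadjusted p under 0.05, 14 member probe sets differed, beside 4.98% of all probe sets. For FAS the differences were 0.52 (204780_s_at, adjusted p = 0.000745), 0.47 (204781_s_at, 0.00438), 0.56 (215719_x_at, 0.000341) and 0.48 (216252_x_at, 0.00238). For CFLAR they were 0.58 (209939_x_at, adjusted p = 0.00136), 0.53 (210563_x_at, 0.000420), 0.41 (211317_s_at, 0.00222) and 0.40 (210564_x_at, 0.00226). The difference between the stimuli was thus tested itself and passed for both genes.
Without batch 3, 1 of the 8 still passed, 215719_x_at of FAS, while the 8 differences were 0.38 to 0.56 (adjusted p up to 0.231) and calls over all probe sets were 29 higher in place of 164. Without CD40L replicate 3 there were 3, and without batch 1, LPS replicate 1 or LPS replicate 3 there were 5 in each case. By the mean of all probe sets of a gene, the difference was 0.42 for FAS (adjusted p = 0.00423) and 0.22 for CFLAR (adjusted p = 0.0547). FADD, with 0.12 (95% confidence interval 0.00 to 0.24), and the caspases, APAF1 and XIAP did not pass.

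Around the members, 53 of 58 listed genes of the pathway in 7 groups were measured, and 5 were not analysed here. Each was read by its brightest probe set. Of all 19775 genes read in this way, 5.03% were higher and 2.92% lower after CD40L, 1.62% higher and 1.48% lower after LPS, and 0.491% higher and 0.152% lower after CD40L than after LPS. The median log2 difference over all genes was 0.0051 after CD40L and 0.0018 after LPS. Of the 53, 7 passed after CD40L, 5 after LPS and 2 in the direct comparison.

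The 7 other death receptors measured (1 more listed was not analysed here) include receptors for TRAIL and TNF. None of them passed the limma test after either stimulus. At an unadjusted p under 0.05 there were 2 after each, beside 19.9% of all genes after CD40L and 15.0% after LPS. Their log2 differences were −0.13 to 0.20, with a median of −0.021 after CD40L and −0.034 after LPS. FAS was thus the sole measured death receptor with a call. Of 5 death ligands 4 were at or below the median of all probe set means, FASLG, the ligand of FAS, among them. LTA, lymphotoxin alpha, rose after CD40L, with 7.08, 6.87 and 6.94 on CD40L arrays against 6.55, 6.71 and 6.73 on control arrays (0.30, adjusted p = 0.0223 from limma). The LTA call was lost without batch 1 or 3, CD40L replicate 1 or 3, or control replicate 1 (0.18 to 0.34, adjusted p up to 0.364). It was also lost without the batch term and in the fit on CD40L and control arrays alone. The median of the ligands was −0.015 after CD40L and 0.0091 after LPS.

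Among 12 measured adaptors and kinases around the death domain, of 13 listed, 3 were higher after CD40L and 0 lower. PEA15, which carries a death effector domain and, like CFLAR, binds FADD and caspase-8, was at 9.21, 9.11 and 8.94 on CD40L arrays, 8.83, 8.76 and 8.71 on LPS arrays and 8.59, 8.34 and 8.52 on control arrays. The conditions did not overlap, with CD40L arrays the highest and control arrays the lowest. Its log2 difference was 0.60 after CD40L (standard error 0.0657, adjusted p = 2.75e-05 from limma), a call that held in all 9 fits without 1 array or batch, and 0.28 after LPS (adjusted p = 0.0349). The LPS call was lost in 8 of 9 such fits, all but that without control replicate 3 (0.21 to 0.33, adjusted p up to 0.226).
CYLD, a deubiquitinase that restrains NF-κB signalling and shapes death receptor complexes, was at 8.44, 8.43 and 8.44 on CD40L arrays, 8.18, 8.18 and 8.05 on LPS arrays and 8.18, 8.05 and 8.18 on control arrays. It rose after CD40L by 0.30 (adjusted p = 0.00658, lost without batch 1 with 0.32 and adjusted p = 0.0704), with 0.0015 after LPS (adjusted p = 0.997). DEDD2, a death effector domain protein of the nucleolus, had 0.20 after CD40L (adjusted p = 0.0394) and 0.27 after LPS (adjusted p = 0.0155). Its CD40L call was lost in all 9 fits without 1 array or batch (adjusted p up to 0.28), and its LPS call without batch 1 or 3, any LPS array or control replicate 1 (0.25 to 0.29, adjusted p up to 0.229).
In the direct comparison of CD40L with LPS, PEA15 (0.32, adjusted p = 0.0442) and CYLD (0.30, adjusted p = 0.0446) were higher, and each call was lost in 8 of 9 fits without 1 array or batch, all but that without batch 2 (0.24 to 0.39, adjusted p up to 0.927). The median of the 12 was 0.047 after CD40L and −0.0019 after LPS.

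BID, the protein that caspase-8 cleaves to carry the death receptor signal to mitochondria, rose after both stimuli. Its levels were 9.98, 9.79 and 9.73 on CD40L arrays, 9.71, 9.44 and 9.64 on LPS arrays and 9.40, 9.25 and 9.32 on control arrays. Both stimulated conditions lay above the control arrays. The log2 difference was 0.51 after CD40L (standard error 0.0614, adjusted p = 7.85e-05 from limma), which held in all 9 fits without 1 array or batch, and 0.27 after LPS (adjusted p = 0.0273), which was lost without batch 1 or 3, LPS replicate 1 or 3, or control replicate 1 or 3 (0.23 to 0.29, adjusted p up to 0.297). The other 5 genes of its group, cytochrome c and further proteins that mitochondria release, did not pass, and the median of the 6 was 0.072 after CD40L and 0.024 after LPS.

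Like CASP8 and CASP10, none of the further caspases measured passed as higher, and 2 more that were listed were not analysed here. Of 7 measured, 0 passed after CD40L in limma (1 at an unadjusted p under 0.05, beside 19.9% of all genes). Their log2 differences were −0.16 to 0.0014, and 2 were lower after LPS. CASP6, an executioner caspase, was at 8.59, 8.50 and 8.70 on LPS arrays against 8.82, 8.84 and 8.97 on control arrays (−0.28, adjusted p = 0.0163 from limma), and at 8.71, 8.72 and 8.73 on CD40L arrays (−0.16, adjusted p = 0.153). CASP9, the caspase that APAF1 activates, was at 8.0, 7.98 and 7.83 on LPS arrays against 8.28, 8.15 and 8.11 on control arrays (−0.25, adjusted p = 0.0321), and at 8.16, 8.19 and 8.08 on CD40L arrays (−0.04, adjusted p = 0.853). The LPS arrays lay below the control arrays for both. Each call was lost in 7 of 9 fits without 1 array or batch. For CASP6 these were all but the fits without control replicate 1 or 2 (−0.31 to −0.24, adjusted p up to 0.149), and for CASP9 all but those without batch 2 or control replicate 2 (−0.27 to −0.22, adjusted p up to 0.317). The difference between CD40L and LPS did not pass for CASP6 (0.12, adjusted p = 0.999) or CASP9 (0.21, adjusted p = 0.264).

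Of 6 measured genes of the IAP family and XAF1, which binds XIAP, 0 were higher and 1 was lower after CD40L, and 1 more that was listed was not analysed here, so the count does not cover the whole family. BIRC2, or cIAP1, a ubiquitin ligase of the TNF receptor and CD40 complexes, was at 9.57, 9.73 and 9.57 on CD40L arrays against 9.91, 9.87 and 9.77 on control arrays (−0.23, adjusted p = 0.0327 from limma), with no overlap. The call was lost without batch 1 or 3, CD40L replicate 1 or 3, or control replicate 1 (−0.24 to −0.17, adjusted p up to 0.402), and without the batch term (adjusted p = 0.073). It was also lost with the batch as a random effect, on CD40L and control arrays alone, and with a trended robust prior in limma. Of 10 caspase substrates 1 was higher after CD40L, LMNB1, a lamin of the nuclear envelope, with 10.12, 10.51 and 10.34 on CD40L arrays against 9.87, 10.01 and 10.01 on control arrays (0.36, adjusted p = 0.00441). This call was lost without batch 3 (0.37, adjusted p = 0.0567) and without the batch term (adjusted p = 0.0522). None of the 10 passed after LPS in limma (3 at an unadjusted p under 0.05, beside 15.0% of all genes). The medians of both groups were −0.042 and 0.040 after CD40L and −0.029 and −0.016 after LPS.

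**Figure D4:**
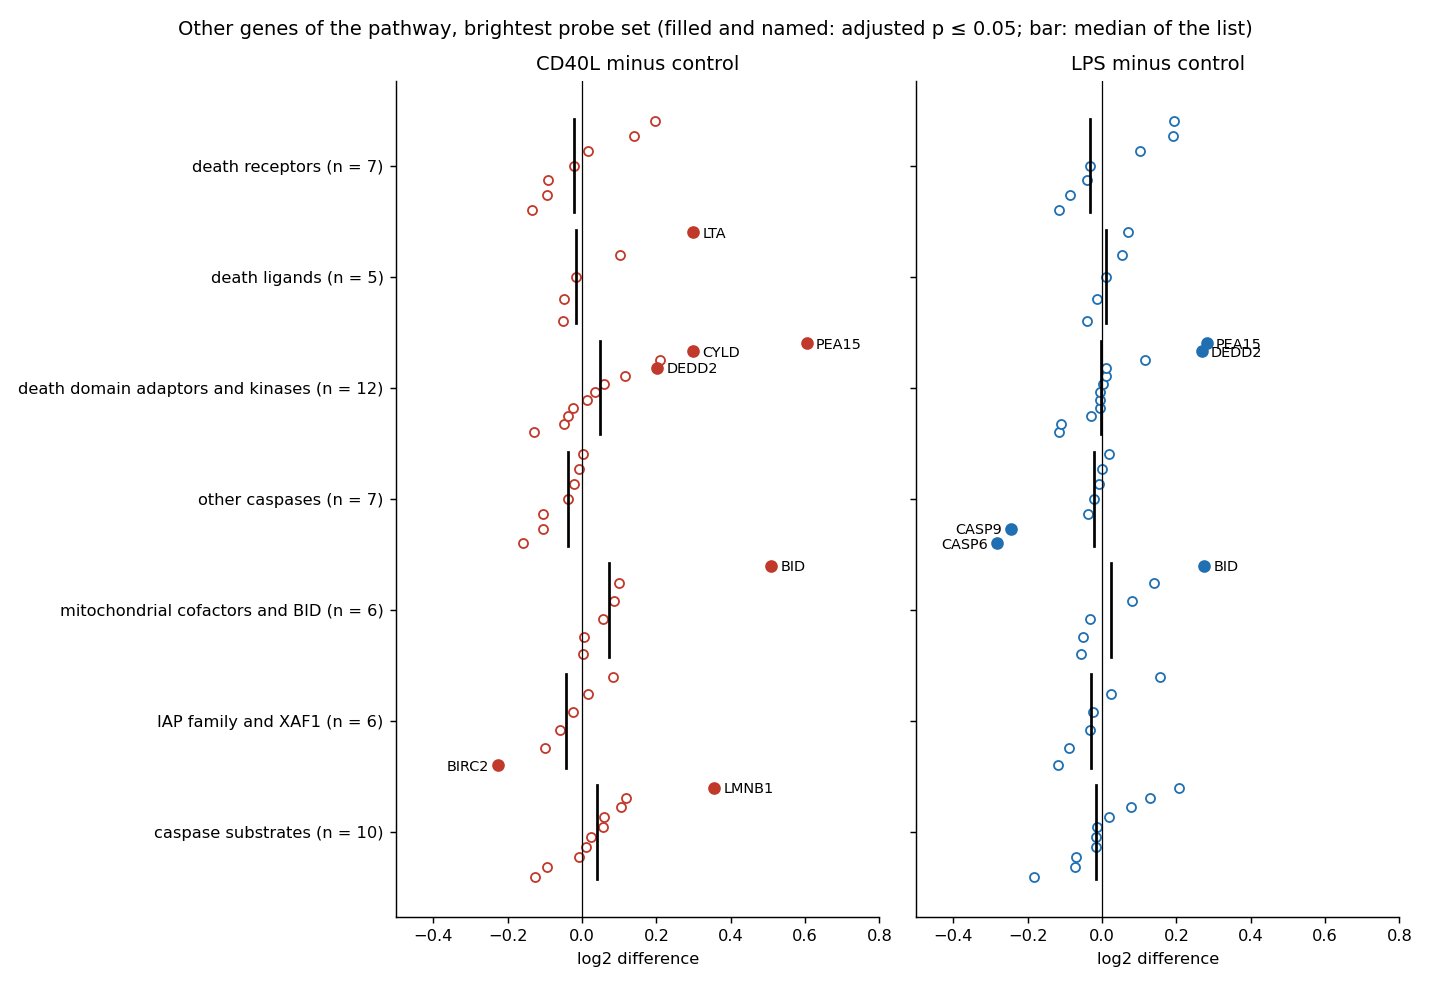
Log2 differences (x axis) of the 53 measured pathway genes by group (rows, 1 point per gene by its brightest probe set, spread vertically for legibility), for CD40L minus control (left) and LPS minus control (right). Filled and named points passed the adjusted p of at most 0.05 and black bars are group medians. PEA15 and BID have the largest called differences after CD40L, 0.60 and 0.51, and CASP6 and CASP9 are the genes lower after LPS.

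The genes whose levels followed FAS most closely over the 9 arrays were found among 23065 probe sets above the median level that name a gene other than the members. They were PIK3CD, a lipid kinase of leukocytes (Pearson r = 0.99), BTN2A2, a butyrophilin (0.99), ICAM1, an adhesion molecule (0.98), PI4KB, a lipid kinase of the Golgi (0.98), and SNX20, a sorting nexin (0.98). For CFLAR they were VAV2 (0.98), ELL2, an elongation factor (0.97), EPS15, of endocytosis (0.97), NECAP2, of clathrin coats (0.97), and SFT2D1, a membrane protein (0.97). These values describe 9 arrays of 3 conditions that share batches.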

How the data were processed

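RNA of 9 BL2 cultures was hybridised to HG-U133 Plus 2.0 arrays. The authors corrected the background, normalised probe intensities by variance stabilisation and summarised probe sets by median polish, and these deposited log2 values entered the tests without further scaling. After leaving out 62 AFFX controls, 54613 probe sets were tested in limma 3.58.1 (R 4.3.3; lmFit and eBayes) with condition and batch as terms over all 9 arrays, and p-values were adjusted over all of them after Benjamini and Hochberg. Genes come from the array annotation. Members, lists and tests were chosen with earlier results of these data known. All members are named. From each list the genes that passed are named, up to 4 per comparison by size of change, and by likeness the top 5 for FAS and for CFLAR.

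Replicate numbers pair the arrays, since the labels number the batches and the study's methods model them. As a check, deviations from condition means were correlated, with a mean r of 0.217 for arrays sharing a number and −0.109 for the rest. The deviations cancel out within a condition, which ties the second mean to the first, so it is no separate comparison. Of the same-number pairs, 7 of 9 exceeded 0.1. The pairs that did not were those of control replicate 2, with −0.181 for CD40L replicate 2 and −0.04 for LPS replicate 2. Control replicate 2 had 0.382 with CD40L replicate 3 and 0.323 with LPS replicate 3. The check thus does not bear out the pairing of that control. Precision is limited by the number of arrays (4 residual degrees of freedom), and an exact permutation of 3 against 3 arrays cannot go below 0.1. Alternatives were no batch term, a random batch (duplicateCorrelation, statmod 1.5.0), only the compared conditions, quantile normalization, median centring, dim probe sets left out, a trended robust prior, gene means, and each batch or each array of the compared conditions left out. Promoter sequences are RefSeq's (GRCh38.p14), and the build of the arrays' annotation is not given in the sources used here. Cells given αIgM, IL21 or BAFF are not analysed here.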

Additional observations from a re-analysis of the deposited data

How the results depend on the processing

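Over 16 alternatives, every member probe set called in the main analysis kept its direction, and limits of depth here are limits of 3 arrays and of dim probe sets. The alternatives refit the same 9 arrays or parts of them, so a kept direction is not independent evidence. After CD40L, 11 member probe sets were higher, 8 with no replicate block (no batch term) and 9 to 13 otherwise, or 7 to 11 when 1 batch or 1 array of the compared conditions was left out (7 without batch 3), with 1 lower and 0 to 1 in those fits. After LPS, 1 was higher and 1 lower. With no replicate block or with the batch as a random effect both counts were 0, and only the higher one was 0 with LPS and control arrays alone or with dim probe sets left out. Without 1 array or batch they were 0 to 2 and 0 to 1. For CD40L minus LPS the 8 higher were 8 in the unpaired fit, 8 to 10 otherwise, and 1 to 9 without 1 array or batch. By gene means, 3 genes were higher after CD40L in place of 2, with FADD added (adjusted p = 0.0353 from limma), and 0 were lower in place of 1. After LPS 0 were higher and 0 lower in place of 1 and 1, and 1 was higher in CD40L minus LPS in place of 2. Counting any probe set, 2 caspase substrates were higher after CD40L in place of 1. Over all probe sets, with no replicate block 884 in place of 2027 were higher and 562 in place of 1022 lower after CD40L, 156 in place of 637 and 166 in place of 487 after LPS, and 64 in place of 164 and 9 in place of 52 in CD40L minus LPS. Quantile normalization gave 1695 and 867 in place of 1022 and 487 lower after CD40L and LPS. Outside the calls, 36, 58 and 28 values of members changed sign in the CD40L, LPS and CD40L minus LPS comparisons. The other pathway genes put through these fits were those called in the main analysis, so they were chosen after seeing the data. Over the 16 alternatives their calls after CD40L held in 16 for PEA15 and BID, 15 for CYLD and 14 for LMNB1. For LTA it was 9, for BIRC2 7 and for DEDD2 2. After LPS the calls held in 8 for CASP6, 7 for BID and DEDD2, 5 for CASP9 and 4 for PEA15. In CD40L minus LPS they held in 4 for CYLD and 3 for PEA15. The causes were not tested.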
